A study of Homo sapiens with 6 samples.

Results

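Chemokine ligands were examined in BJ cells, an established human foreskin fibroblast line, during a chemical protocol whose product the series names FiNs. The members were all genes of the deposited count matrix with a symbol of CXCL or CCL and a number, with XCL1, XCL2 and CX3CL1, which gave 41 of 60843 genes. Day 0 cells (wild type) had grown in DMEM with serum on dishes coated with poly-D-lysine. Day 2 cells, of the same genotype and labelled as induced neuron cells, had been in neuronal induction medium with 10 µM forskolin, a plant diterpene that activates adenylyl cyclase. Day 5 cells, under the same label, had moved at day 2 to neuronal maturation medium, again with 10 µM forskolin. Each day had 2 libraries, and no medium-only cells were analysed here. Time, medium and drug therefore cannot be told apart. BJ is a single line, and whether same-day libraries came from separate cultures is not in the labels. The p-values then measure only the spread among these libraries, and it may be technical.

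Chemokines are small secreted proteins that guide migrating cells by binding receptors coupled to G proteins, and their subfamilies (CXC, CC, C and CX3C) are named for the spacing of cysteines near the amino terminus. CXC ligands with the motif Glu-Leu-Arg (ELR) attract neutrophils through CXCR2 and CXCR1, CXCL9, CXCL10 and CXCL11 attract activated T cells through CXCR3, and CCL2 and CCL7 attract monocytes through CCR2. In fibroblasts the ELR-type genes and several CC genes are classic targets of interleukin 1 and TNF through NF-κB, the CXCR3 ligands are induced by interferons, and many of these mRNAs are short-lived.

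Of the 41 ligands, 20 were detected, meaning at least 3 counts in both libraries of at least 1 day. Another 6 had some count below that rule, and 15 had no count in any library. The libraries held 17605858 to 27953926 counts, so 3 counts, the limit that a count of 0 allows, were worth 0.103 to 0.180 CPM (the count of a gene relative to TMM-scaled library sizes). Intervals and limits of this kind cover counting error only. All 6 ELR-type ligands were detected, as were 4 of the 4 monocyte-type CC ligands (CCL2, CCL7, CCL8 and CCL13) and 2 of the 3 CXCR3 ligands. Of 15 other inflammatory CC ligands 4 were detected, of 5 other CXC ligands 2, of 5 homeostatic CC ligands 1, and of the C and CX3C ligands CX3CL1 alone of 3. In bulk samples such as these, fewer cells of a type and less RNA per cell cannot be told apart.

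Markers were read beside these levels. The summed level of 9 fibroblast markers was 13854 and 14189 CPM at day 0, 10930 and 11159 at day 2, then 27781 and 28181 at day 5, and all 9 had enough counts for testing. Its members went both ways at day 5 against day 0: COL1A2, COL3A1, PDGFRA and PDGFRB rose, and COL1A1, DCN, THY1, LUM and FAP fell. COL1A2 and COL3A1 held most of the day 5 sum, while DCN went from 1044 to 202 CPM and THY1 from 427 to 104 CPM. The summed level of 9 neuronal markers was 243 and 251 CPM at day 0, 149 and 156 at day 2, then 106 and 111 at day 5, and most of it was TUBB3. Against the label of induced neuron cells, STMN2 had no count in any library, DCX had at most 1 count in a library, and MAP2 fell from 13.0 to 4.44 and 0.835 CPM. SNAP25, a presynaptic protein gene, had mean levels of 5.89, 4.67 and 18.3 CPM at days 0, 2 and 5 (adjusted p = 6.93e-09 at day 5 against day 0, edgeR). SYN1, a synaptic vesicle protein gene, went from 1.69 to 2.98 CPM at day 2 (0.0123) and back to 1.54 CPM at day 5, and RBFOX3 had counts of 3 and 5, 8 and 14, then 6 and 8. Of 10 leukocyte markers, CD3E, MS4A1 and FCGR3A had no count, and PTPRC, the pan-leukocyte gene, had no count at days 0 and 2 and 2 counts in 1 library at day 5. The leukocyte sum (96.9 and 98.4, 132 and 134, 49.7 and 45.5 CPM at days 0, 2 and 5) was nearly all CD68, a lysosomal gene that fibroblasts also express. Summed endothelial markers (5 genes) were 76.9 and 75.7, 87.7 and 86.5, and 138 and 137 CPM at the 3 days. KDR in this list rose from 4.16 to 8.21 and 61.8 CPM (adjusted p = 1.00e-15 at day 5 against day 0, edgeR), TEK stood at 70.4, 78.1 and 74.5 CPM, PECAM1 had 0 and 4 counts at day 0, none at day 2 and 9 and 7 at day 5, and CDH5 had at most 1 count. Summed epithelial markers (5 genes) were 34.9 and 37.4, 11.5 and 11.7, and 10.4 and 11.1 CPM, with KRT5 and KRT14 at 0, and summed smooth muscle markers (4 genes) were 137 and 134, 76.1 and 76.1, and 68.9 and 68.5 CPM. The part of these cell types in the ligand changes was not tested.

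The first question was how many ligands changed and which way. Of the 41, 17 passed the filter on low counts and were tested in edgeR's quasi-likelihood test. Adjusted p-values (Benjamini-Hochberg) were taken over 16327 genes, with calls at an adjusted p under 0.05. From day 0 to day 2, 7 ligands rose and 8 fell, where 33.4% of all genes tested rose and 33.4% fell. At day 5 against day 0, 6 rose (35.8% of all genes tested) and 5 fell (34.1%). From day 2 to day 5, 5 rose (32.1% of all genes) and 8 fell (33.7%). Most of the genes tested were called in each comparison, and whether the ligand counts differ from that background was not tested. When changes had to exceed 2-fold (edgeR's glmTreat), 5 of the 17 ligands were higher and 2 lower at day 2 against day 0. Of all genes, 6.99% were higher and 5.54% lower. The same test gave 5 higher (9.74% of all genes) and 4 lower (10.3%) at day 5 against day 0. At day 5 against day 2 it gave 4 higher (6.41%) and 4 lower (7.96%). The ranges of adjusted p over settings given below include glmTreat, which gave the top value for each call whose range is shown.

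The median log2 fold change of the 17 ligands (later day against earlier) was -0.44 between days 0 and 2, 0.07 between days 0 and 5 and 0.24 between days 2 and 5, beside medians of 0.00, 0.04 and 0.01 over all genes tested. With genes at 0 on a day set to their bound the first median was -0.50 over 16 ligands, and the others were the same. Each of the 17 passed the test in at least 1 comparison and 8 in all 3. Opposite signs in the first and second step of the course were called for 7. How many of all genes tested did so was not counted, so these numbers do not set the ligands apart. The 3 comparisons share libraries. Scaling by library totals in place of TMM factors moved the median of all genes by -0.18 at day 2 and -0.21 at day 5, each against day 0, and moved the share of higher calls from 50.01 to 38.1% and from 51.2 to 39.0%. No called ligand changed direction under that scaling.

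**Figure D1:**
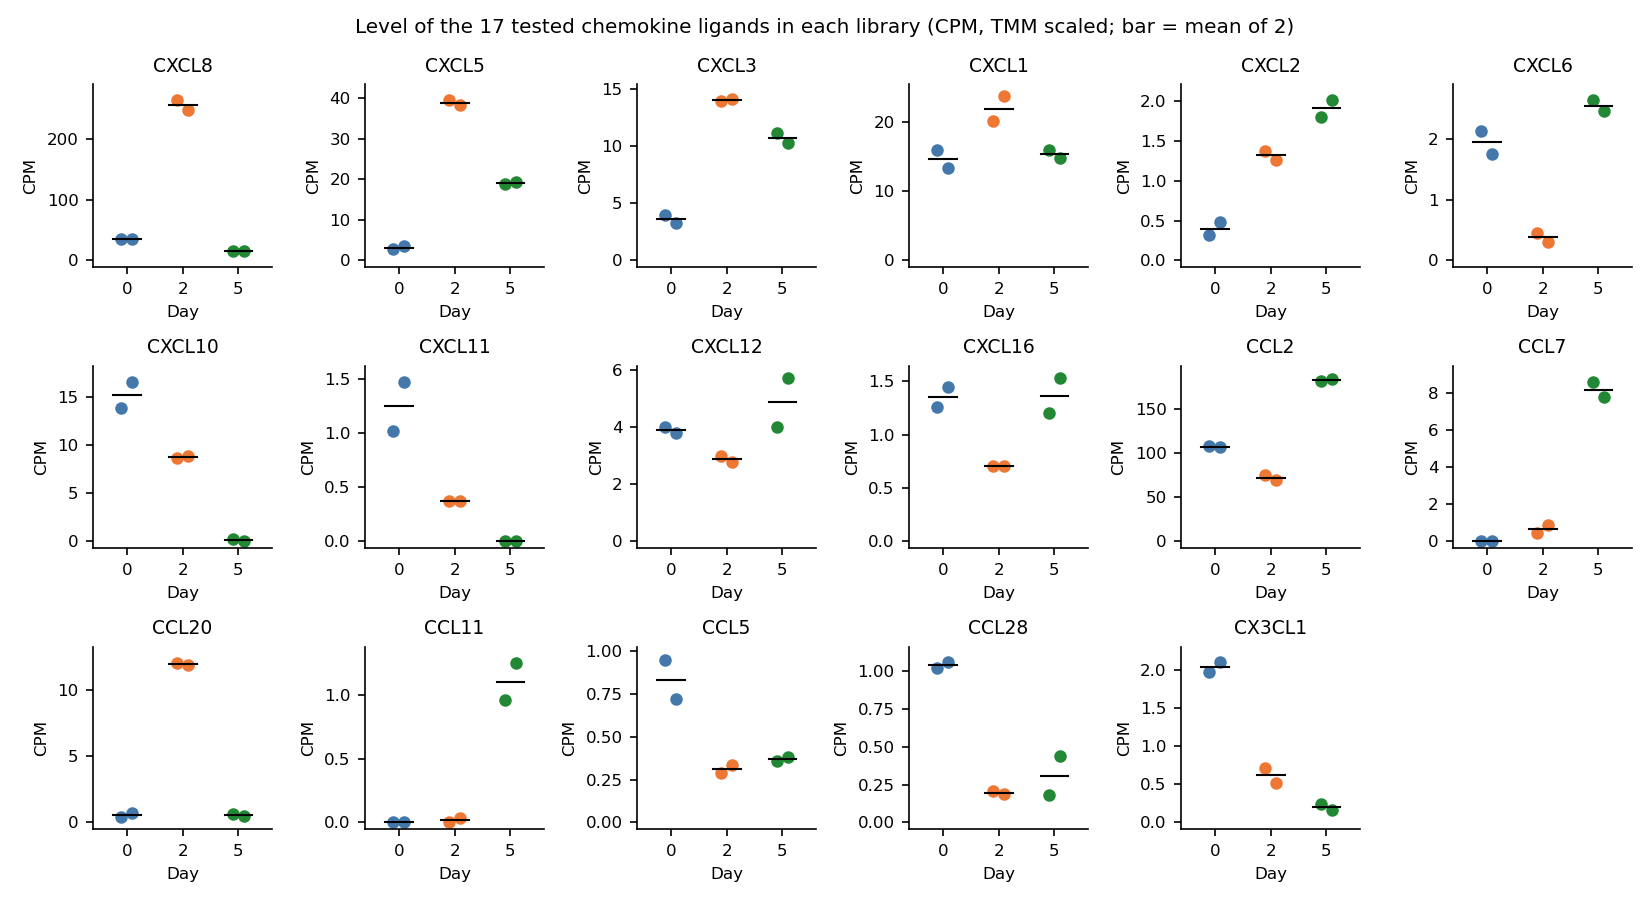
Level of each of the 17 tested chemokine ligands in every library (vertical axis, CPM scaled by TMM factors, a separate linear axis for each gene) at day 0, 2 and 5 (horizontal axis). Points are libraries and bars are means of 2. CXCL8, CXCL5 and CCL20 peak at day 2, CCL2, CCL7 and CCL11 are highest at day 5, and CXCL10, CXCL11 and CX3CL1 are highest at day 0.

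Which ligands made up the family's RNA changed between the days. The summed level of all 41 ligands was 193 CPM in each day 0 library, 441 and 422 at day 2, then 265 and 266 at day 5, so the groups did not overlap. Ligands took 0.0212 and 0.0210% of a library's counts at day 0, 0.0425 and 0.0406% at day 2, then 0.0251 and 0.0253% at day 5. CCL2, the main monocyte attractant of stromal cells, held 56.1 and 55.4% of all ligand counts at day 0, 17.1 and 16.5% at day 2, then 68.7 and 69.3% at day 5. CXCL8, the neutrophil attractant also called interleukin 8, held 18.0 and 18.3%, then 59.6 and 58.5%, then 5.64 and 5.55%. The leading ligand was thus CCL2 at days 0 and 5 and CXCL8 at day 2, on a scale of counts that also reflects transcript length.

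**Figure D2:**
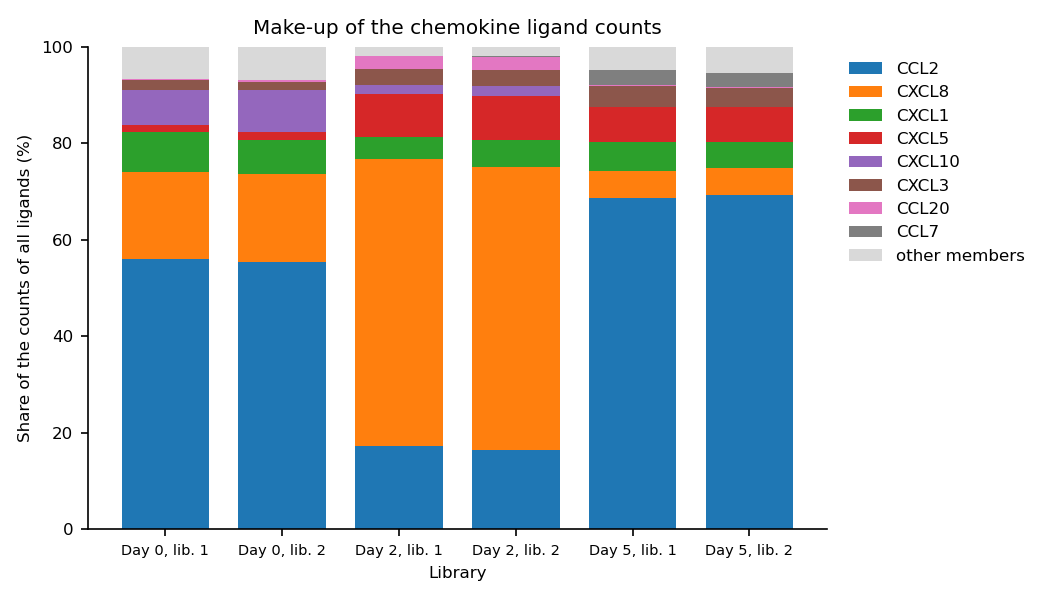
Share of the counts of all 41 chemokine ligands (vertical axis, %) taken by each of 8 ligands and by the other members together, in each of the 6 libraries (horizontal axis). CXCL8 takes 59.6 and 58.5% at day 2, and CCL2 takes 68.7 and 69.3% at day 5.

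Per length the order was similar. On the scale of CPM per kilobase of the deposited gene length, CCL2 led at day 0 with a mean of 145, followed by CXCL8 with 21.3, then CXCL10 with 13.0 and CXCL1 with 12.5, whose libraries overlapped. At day 2 CXCL8 had 155 CPM per kilobase and CCL2 97.9, followed by CXCL1 with 18.8, CXCL5 with 15.97, CCL20 with 14.4 and CXCL3 with 13.1. Each of these stood above the next in both libraries. At day 5 CCL2 had 247 CPM per kilobase, far above CXCL1 with 13.1, CCL7 with 10.1, CXCL3 with 9.99, CXCL8 with 9.05 and CXCL5 with 7.85, of which CCL7 and CXCL3 overlapped. Of the 20 detected ligands, 5 had their highest mean level at day 0, 7 at day 2 and 8 at day 5, by the means alone. Of those highest at day 5, CXCL6, CXCL12 and CXCL16 did not pass the test against day 0, and CXCL2 did not pass against day 2. CCL5, highest at day 0, did not pass against day 5, and CCL8, CCL13 and CCL26 were not tested. The day of the highest mean was not counted over all genes.

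Of the 6 ELR-type ligands, neutrophil attractants, 5 rose from day 0 to day 2 (CXCL8, CXCL5, CXCL3, CXCL1 and CXCL2) and CXCL6 fell. Of all genes tested, 33.4% rose and 33.4% fell in that step. CXCL1 and CXCL2 did not pass when the rise had to exceed 2-fold (glmTreat). At day 5 against day 0, CXCL5, CXCL3 and CXCL2 were higher, CXCL8 was lower, and CXCL1 and CXCL6 did not pass the test. From day 2 to day 5, CXCL8, CXCL5, CXCL3 and CXCL1 fell, CXCL6 rose and CXCL2 did not pass the test. Their summed level was 60.04 and 57.6 CPM at day 0, 338 and 325 at day 2, then 65.5 and 63.7 at day 5. CXCL8 held most of it at days 0 and 2 and less than CXCL5 at day 5.

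These 6 genes lie within 359 kb of chromosome 4 on GRCh38 (GENCODE 29), each a protein-coding gene: CXCL8 at chr4:73740506-73743716, CXCL6 at chr4:73836497-73849064 and CXCL1 at chr4:73869393-73871242 on the forward strand, and CXCL5 at chr4:73995642-73998779, CXCL3 at chr4:74036589-74038807 and CXCL2 at chr4:74097035-74099293 on the reverse strand. RefSeq promoters (GRCh38.p14, the 250 bases before the start) matched 30 of the 41 ligands by symbol and 12 of the 17 tested, not CCL2, CCL5, CCL11, CXCL16 or CX3CL1. A κB-type motif, GGNNTTTCC on either strand, was found in 9 of the 30 and in 5.48% of 35116 promoters of all genes. All 9 were among the 12 tested, and 6 of them are the ELR-type genes of this cluster, some of them near copies. All 6 ELR-type promoters held the same 9 letters, GGAATTTCC, with the first base 77 to 91 bases before the start. That exact string, picked after the sequences were seen, was in 0.413% of all promoters, both strands counted, and lies on the other strand in CXCL10 and CXCL11, which fell. The 30 bases around it are shown because they set the genes that rose beside CXCL6, which fell. Each runs 5′ to 3′ along its gene, with the match in capitals, at chr4:73740468-73740497 (CXCL8), chr4:73836579-73836608 (CXCL6), chr4:73869305-73869334 (CXCL1), chr4:73998748-73998777 (CXCL5), chr4:74038748-74038777 (CXCL3) and chr4:74099253-74099282 (CXCL2).
CXCL8: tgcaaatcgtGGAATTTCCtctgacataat
CXCL1: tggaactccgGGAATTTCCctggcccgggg
CXCL2: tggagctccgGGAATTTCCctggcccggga
CXCL3: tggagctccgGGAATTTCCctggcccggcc
CXCL5: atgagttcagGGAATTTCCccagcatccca
CXCL6: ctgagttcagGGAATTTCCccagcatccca
The flanks fall into a CXCL1, CXCL2 and CXCL3 form, a CXCL5 and CXCL6 form, and CXCL8. GENCODE 29 places the first exons of CXCL2, CXCL3, CXCL5 and CXCL6 further upstream, so that the match lies in an annotated exon there, whereas in CXCL1 and CXCL8 it lies in none.

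The whole 250-base windows of CXCL5 and CXCL6 were identical at 85.3% of aligned positions (214 of 251), the closest pair of the 6. CXCL1 and CXCL3 were identical at 81.4%, CXCL2 and CXCL3 at 73.4%, and CXCL1 and CXCL2 at 70.1%, while CXCL8 was identical to the others at 43.9 to 47.9%. A motif match is a description of the letters and not a measured site. Reads of near copies may have been shared in the counting, and CXCL1, CXCL2 and CXCL5 had fractional deposited counts, so the split between these paralogs is uncertain.

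Values per library set out the pattern. CXCL8 stood at 34.8 and 35.2 CPM at day 0, 263 and 247 at day 2, then 14.9 and 14.8 at day 5. Both day 2 libraries were far above the rest and both day 5 libraries below day 0. The log2 fold change was 2.86 ± 0.04 (SE, adjusted p = 1.57e-18, edgeR) at day 2 against day 0, -4.10 ± 0.06 (1.83e-19) at day 5 against day 2, with -1.23 ± 0.07 (5.53e-11) at day 5 against day 0. The CXCL8 window upstream of its first annotated exon (chr4:73740319-73740505, forward strand) is shown since CXCL8 carried most of the day 2 gain, with capitals marking, in order, an AP-1 motif (TGANTCA, in 3 of the 12 promoters and 6.57% of all) and the κB-type match.
CXCL8 upstream: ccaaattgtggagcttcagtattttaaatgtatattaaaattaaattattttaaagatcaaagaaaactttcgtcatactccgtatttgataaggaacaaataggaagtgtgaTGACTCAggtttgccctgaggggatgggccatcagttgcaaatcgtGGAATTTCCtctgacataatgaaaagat
CXCL5, which encodes the epithelial neutrophil attractant ENA-78 and signals through CXCR2, was at 2.88 and 3.47 CPM at day 0, 39.5 and 38.3 at day 2, then 19.0 and 19.3 at day 5. It rose 12.2-fold by day 2 (log2 fold change 3.60 ± 0.11, adjusted p = 8.08e-15, edgeR), then fell 2.03-fold, and stayed 5.98-fold above day 0 (adjusted p = 2.61e-12) at day 5. No library of any day overlapped another day.

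CXCL3, also a CXCR2 ligand, was at 3.94 and 3.30 CPM at day 0, 14.0 and 14.1 at day 2, then 11.2 and 10.3 at day 5. It was 3.89-fold higher at day 2 (adjusted p = 1.03e-09, edgeR) and 2.97-fold higher at day 5 (3.71e-08) than at day 0. CXCL1, known as GROα, had 16.02 and 13.4 CPM at day 0, 20.3 and 23.8 at day 2, then 16.01 and 14.8 at day 5, so that only day 2 stood apart. Its rise at day 2 was small, with a log2 fold change of 0.59 ± 0.11 (adjusted p = 0.000112, edgeR), and day 5 against day 0 gave 0.07 ± 0.12 (0.590). CXCL2, the lowest of the rising genes, had 0.316 and 0.481 CPM at day 0, 1.37 and 1.27 at day 2, then 1.799 and 2.02 at day 5. It rose by a log2 fold change of 1.70 ± 0.43 at day 2 (adjusted p = 0.00206, edgeR) and stood at 2.23 ± 0.43 at day 5 against day 0 (0.000174), and the step between them gave 0.53 ± 0.37 (0.218). The small fall of CXCL3 from day 2 to day 5 (log2 fold change -0.39, adjusted p = 0.0114) was not called without day 5 replicate 2 (0.0763), and its adjusted p over all other settings ran from 0.00602 to 1.

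The CXCL1 window nearest its start (chr4:73869253-73869392, forward strand) is shown for the gene of this group that moved least, with 2 κB-type matches in capitals. CXCL2 and CXCL3, which rose more, held the same second match at the same distance from the start.
CXCL1 upstream: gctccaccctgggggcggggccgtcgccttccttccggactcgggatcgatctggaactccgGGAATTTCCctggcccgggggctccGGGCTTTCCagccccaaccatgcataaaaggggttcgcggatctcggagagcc
CXCL6, known as GCP-2 and next of kin to CXCL5, moved the other way, with 2.13 and 1.75 CPM at day 0, 0.458 and 0.298 at day 2, then 2.64 and 2.46 at day 5. Both day 2 libraries lay below every other library. The log2 fold change was -2.35 ± 0.39 at day 2 against day 0 (adjusted p = 4.13e-05, edgeR), with 2.75 ± 0.39 at day 5 against day 2 (8.57e-06), and day 5 against day 0 gave 0.39 ± 0.31 (0.274). CXCL5 and CXCL6 thus had opposite signs in both steps, while their upstream windows were the most alike of the group.

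**Figure D3:**
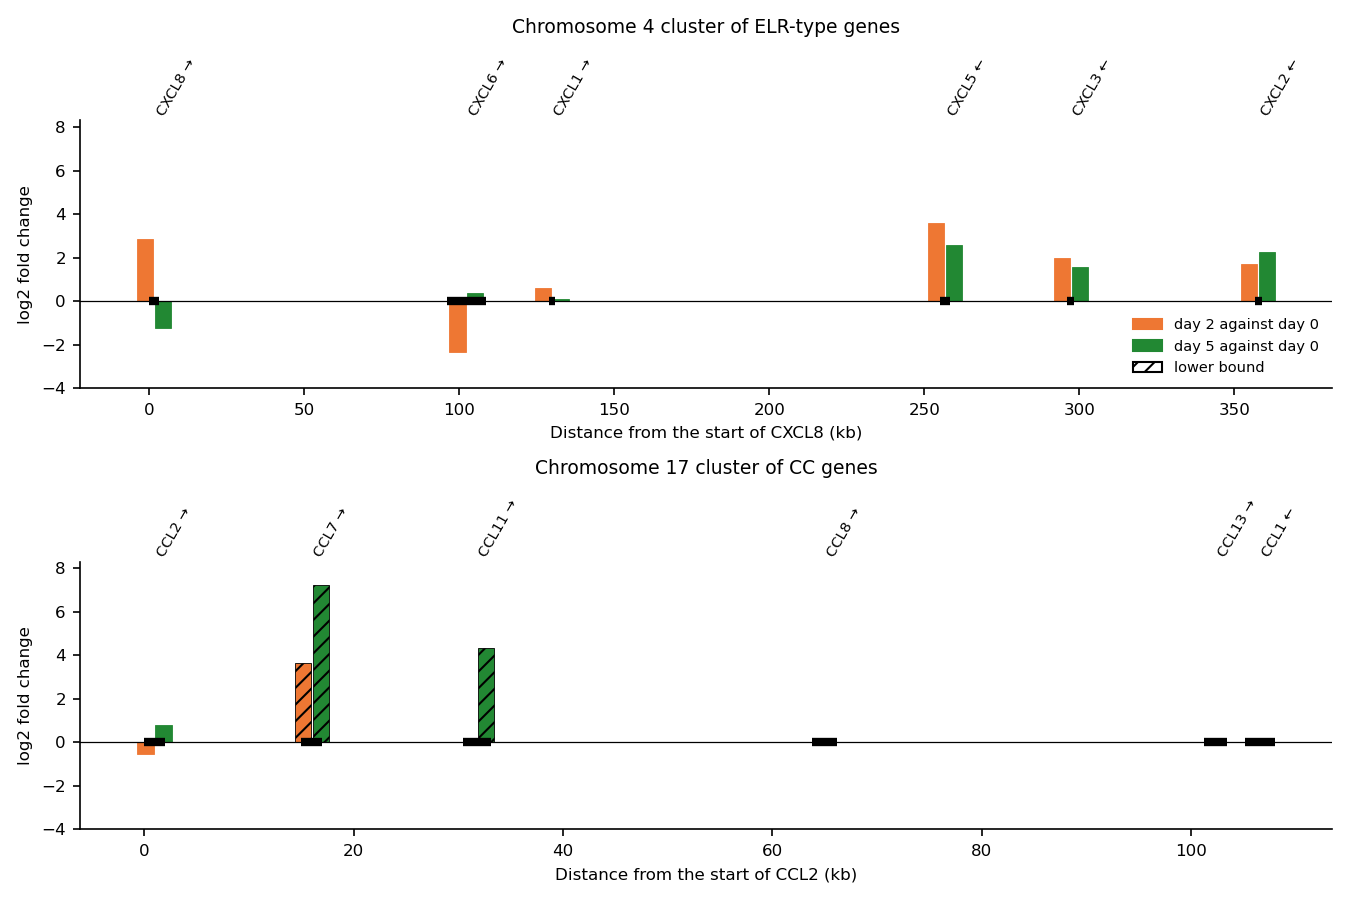
Log2 fold change (vertical axis) of each ligand gene in the chromosome 4 cluster of ELR-type genes and the chromosome 17 cluster of CC genes, placed by distance from the first gene (horizontal axis, kb), at day 2 (orange) and day 5 (green) against day 0. Hatched bars are lower bounds for genes with no count at day 0, and arrows show the strand. CCL8, CCL13 and CCL1, which were not tested, and CCL11 at day 2 have no bar, which does not mean no change. CXCL6 points down at day 2 between CXCL8 and CXCL1, which point up, and CCL7 and CCL11 are far above CCL2 at day 5.

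Of the 3 CXCR3 ligands, CXCL10 and CXCL11 were tested, and both were lower at day 2 than at day 0 and lower again at day 5. CXCL10, the interferon-induced T cell attractant IP-10, was at 13.9 and 16.6 CPM at day 0, 8.62 and 8.89 at day 2, then 0.240 and 0.0546 at day 5. The last values are at or near the worth of 3 counts. Its log2 fold change was -0.80 ± 0.14 at day 2 (adjusted p = 5.73e-05, edgeR) and -6.68 ± 0.30 at day 5 (1.65e-12), each against day 0. The day 5 value rests on 4 and 1 counts, and was -8.01 without day 5 replicate 1 and -5.96 without day 5 replicate 2. CXCL11, a CXCR3 and ACKR3 ligand, had 1.03 and 1.48 CPM at day 0, 0.375 and 0.372 CPM at day 2 and no count at day 5. It was at least 14.8-fold lower at day 5 than at day 0 (adjusted p = 2.27e-05, edgeR) and at least 4.35-fold lower than at day 2 (0.00196), taking 3 counts over both day 5 libraries as the floor. Its fall at day 2 (log2 fold change -1.74 ± 0.52, adjusted p = 0.00751) was not called without day 0 replicate 2 (0.130), and over all other settings the adjusted p ran from 0.00268 to 0.179. CXCL9, the third CXCR3 ligand, had 2 counts in 1 day 0 library, 1 count in 1 day 2 library and none at day 5, was not tested, and with no count filter passed in no comparison (adjusted p = 0.641 to 0.900, edgeR).

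The 3 genes sit side by side on the reverse strand of chromosome 4, with CXCL9 at chr4:76001275-76007488, CXCL10 at chr4:76021117-76023497 and CXCL11 at chr4:76033682-76041415. The CXCL10 promoter window (chr4:76023498-76023747, reverse strand) is shown because it held both an ISRE-type motif (GAAANNGAA, in 3 of the 12 promoters and 6.88% of all), the first stretch in capitals, and a κB-type motif on the other strand, the second.
CXCL10 upstream: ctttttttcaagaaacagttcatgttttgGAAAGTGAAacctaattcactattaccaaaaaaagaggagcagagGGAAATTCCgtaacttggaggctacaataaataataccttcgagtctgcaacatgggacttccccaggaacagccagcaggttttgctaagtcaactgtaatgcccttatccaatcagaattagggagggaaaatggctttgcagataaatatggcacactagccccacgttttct
In CXCL11, 30 bases at chr4:76036132-76036161 (reverse strand, inside an exon in GENCODE 29) hold an AP-1 motif and a κB-type motif on the other strand, in that order.
CXCL11 site: tgcaTGACTCAaagagGGAAATTCCtgtgc
The ISRE-type letters were not in the CXCL11 window, and CXCL2 and CXCL3 held them.

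Of the 4 monocyte-type CC ligands, CCL2 and CCL7 were tested. Both were higher at day 5 than at day 0 and than at day 2, and they parted only in the first step, in which CCL2 fell and CCL7 rose. CCL2 (chr17:34255218-34257203) was at 108 and 107 CPM at day 0, 75.6 and 69.4 at day 2, then 182 and 184 at day 5. No days overlapped. The log2 fold change was -0.57 ± 0.04 at day 2 against day 0 (adjusted p = 3.24e-09, edgeR), 1.34 ± 0.04 at day 5 against day 2 (2.19e-14), with 0.77 ± 0.04 at day 5 against day 0 (1.96e-11). CCL7 (chr17:34270221-34272242), which starts 15.003 kb from the start of CCL2 on the same strand and encodes monocyte chemotactic protein 3, had no count at day 0, levels of 0.458 and 0.893 CPM at day 2, then of 8.58 and 7.75 CPM at day 5. Against a floor of 3 counts over both day 0 libraries it was at least 12.5-fold higher at day 2 (adjusted p = 1.53e-05, edgeR) and at least 148-fold higher at day 5 (4.26e-10), and day 5 against day 2 gave 3.57 ± 0.32 on the log2 scale (5.14e-08).

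CCL11 (chr17:34285668-34288334), the eosinophil attractant eotaxin, follows CCL7 on the same strand and appeared at day 5 with 0.960 and 1.26 CPM. It had no count at day 0 and 1 count in 1 library at day 2. It was at least 20.2-fold higher at day 5 than at day 0 (adjusted p = 4.69e-05, edgeR), and the ratio of day 5 to day 2 was 56.7, with an exact 95% interval of 9.60 to 2297 from counting alone (adjusted p = 0.000150). CCL8 (chr17:34319036-34321402) and CCL13 (chr17:34356452-34358610), further monocyte attractants of this cluster, were detected but had too few counts for the test. CCL8 had no count at day 0, 5 counts in each day 2 library and 1 and 0 counts at day 5. CCL13 had counts of 4 and 0 at day 0, of 1 and 5 at day 2, then of 11 and 6 at day 5. With no count filter neither passed in any comparison, and the lowest adjusted p was 0.0721 for CCL8 (day 2 against day 0) and 0.0556 for CCL13 (day 5 against day 0, edgeR). CCL1, the last gene of the cluster, had no count in any library. In all, 15 of the 41 ligand genes lie on chromosome 17 and 10 on chromosome 4.

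CCL20, the only ligand of CCR6 among chemokines and an attractant of Th17 cells and immature dendritic cells, had the largest fitted rise from day 0 to day 2 among tested ligands with counts on both days. It was at 0.394 and 0.687 CPM at day 0, 12.1 and 11.9 at day 2, then 0.600 and 0.491 at day 5. Day 2 stood alone, and day 0 and day 5 overlapped. The log2 fold change was 4.43 ± 0.23 at day 2 against day 0 (adjusted p = 2.43e-11, edgeR), -4.45 ± 0.26 at day 5 against day 2 (8.27e-11), with -0.02 ± 0.40 at day 5 against day 0 (0.974). CCL20 lies on chromosome 2 (chr2:227805739-227817564), away from the clusters. Its window up to the annotated exon (chr2:227813682-227813821, forward strand) is shown as that of a transient gene outside chromosome 4, with capitals marking a κB-type match on the other strand and a TATA-type motif (TATAAA, in 4 of the 12 promoters and 10.7% of all).
CCL20 upstream: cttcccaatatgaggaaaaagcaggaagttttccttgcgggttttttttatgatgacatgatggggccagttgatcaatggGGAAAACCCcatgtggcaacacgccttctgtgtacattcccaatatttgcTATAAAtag
The cAMP response element TGACGTCA was in 0 of the 12 promoters and in 1.65% of all, which says only that these letters were not in these windows. Over all 30 matched ligands, tested or not, the ISRE-type motif was in 6, AP-1 in 6 and the TATA-type motif in 13.

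**Figure D4:**
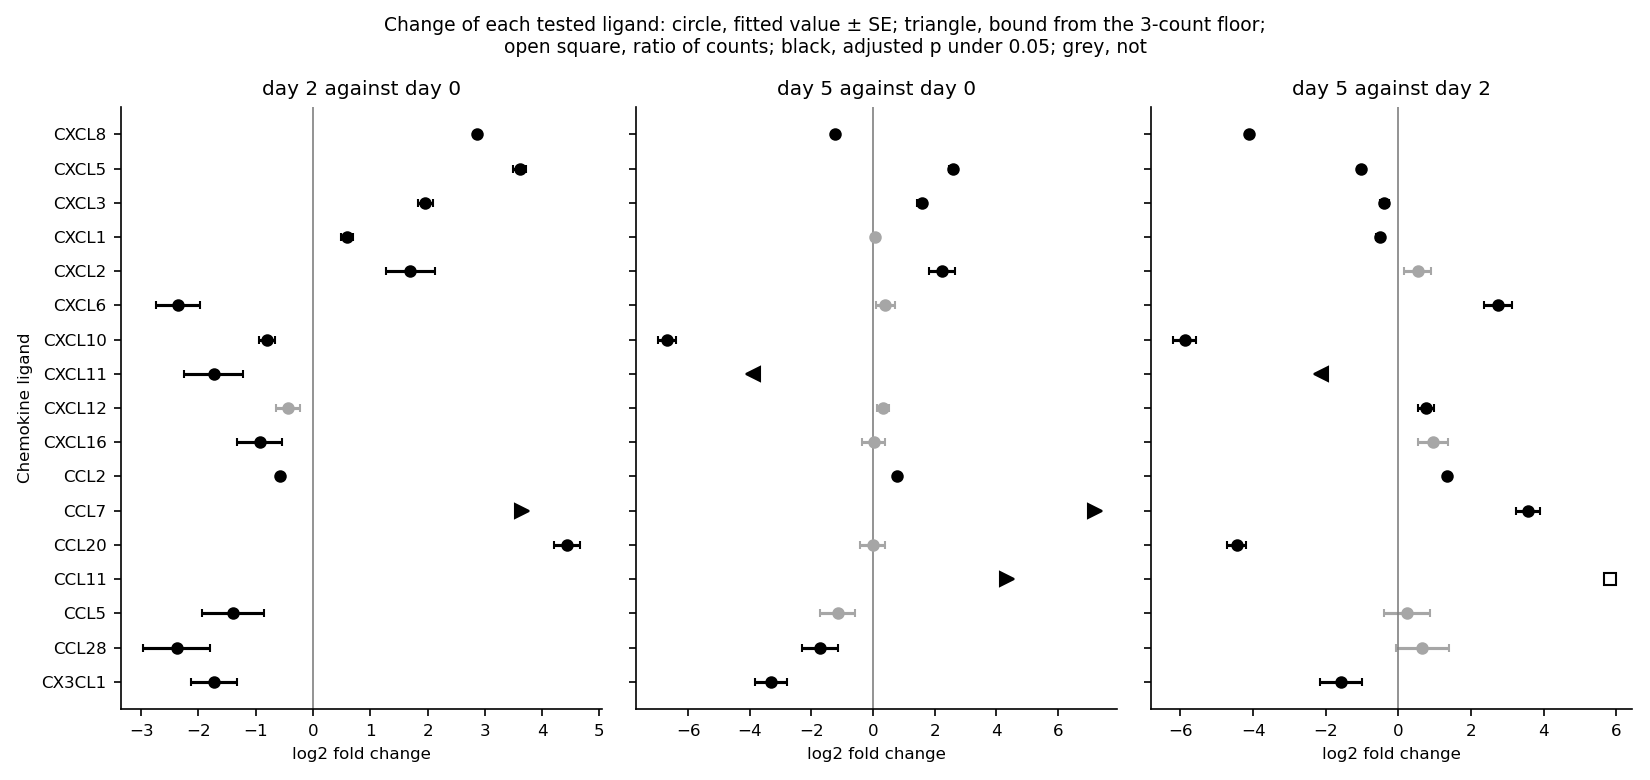
Log2 fold change (horizontal axis) of each of the 17 tested chemokine ligands (vertical axis) in the 3 comparisons. Circles are fitted values with SE, triangles are bounds from the floor of 3 counts, the open square is a ratio of counts, and black marks an adjusted p under 0.05. CXCL8 and CCL20 lie right of 0 in the first panel and left of 0 in the last, at -4.10 and -4.45.

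Among the remaining ligands levels were low, and CX3CL1, CCL28, CCL5 and CXCL16 fell by day 2. CX3CL1 (chr16:57372458-57385048), the membrane-tethered ligand fractalkine, was at 1.97 and 2.10 CPM at day 0, 0.708 and 0.521 at day 2, then 0.240 and 0.164 at day 5. Its libraries were ordered by day with no overlap. The log2 fold change was -1.73 ± 0.40 at day 2 (adjusted p = 0.00106, edgeR) and -3.31 ± 0.51 at day 5 (1.99e-05), each against day 0. Its fall from day 2 to day 5 (-1.58 ± 0.59, adjusted p = 0.0252) was lost in DESeq2 (0.0588), limma-voom (0.0588), without day 2 replicate 1 (0.105) and without day 5 replicate 2 (0.127), within a range of 0.0176 to 0.321.

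CCL28 (chr5:43376645-43412391), a mucosal epithelial ligand of CCR10 and CCR3, was at 1.03 and 1.07 CPM at day 0, 0.208 and 0.186 at day 2, then 0.180 and 0.437 at day 5. It fell by 2.38 on the log2 scale at day 2 (SE 0.59, adjusted p = 0.00181, edgeR). Its lower level at day 5 against day 0 (-1.73 ± 0.58, adjusted p = 0.0148) was not called without day 0 replicate 1 (0.0645), without day 0 replicate 2 (0.0833) or without day 5 replicate 1 (0.142), in a range of 0.00734 to 0.177, and the fold change was -2.51 on the log2 scale without day 5 replicate 2. CCL5 (chr17:35871491-35880793), the T cell attractant RANTES, was at 0.947 and 0.722 CPM at day 0, 0.292 and 0.335 at day 2, then 0.360 and 0.382 at day 5. All day 0 libraries lay above the others. Its fall at day 2 (-1.39 ± 0.54, adjusted p = 0.0325) missed the threshold in DESeq2 (0.104), with the replicate number as a block (0.0504), and without any 1 of the 4 libraries compared, in a range of 0.0165 to 0.490. Day 5 against day 0 gave -1.15 ± 0.57 (0.0800).

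CXCL12 (chr10:44370165-44386493), the stromal ligand of CXCR4 and ACKR3, was at 4.02 and 3.81 CPM at day 0, 2.998 and 2.79 at day 2, then 4.02 and 5.73 at day 5. Day 2 was lowest, and days 0 and 5 overlapped. It rose from day 2 to day 5 (log2 fold change 0.76 ± 0.22, adjusted p = 0.00565, edgeR), a call lost without day 5 replicate 2 (0.122), in a range of 0.00149 to 1. Day 2 against day 0 gave -0.44 ± 0.21 (adjusted p = 0.0804) and passed only with library totals (0.0163), and day 5 against day 0 gave 0.32 ± 0.21 (0.182) and passed only without day 5 replicate 1 (0.0468). CXCL16 (chr17:4733526-4739922), a transmembrane ligand of CXCR6, was at 1.26 and 1.44 CPM at day 0, 0.708 and 0.707 at day 2, then 1.20 and 1.53 at day 5. Its fall at day 2 (-0.93 ± 0.39, adjusted p = 0.0438) was lost in DESeq2 (0.105), with the replicate number as a block (0.0675) and without any 1 of the 4 libraries, in a range of 0.0175 to 1. The step to day 5 gave 0.95 ± 0.41 (0.0502).

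The ligands that were not tested numbered 24. CCL26, eotaxin 3, had counts of 4 and 6 at day 0, of 6 and 9 at day 2, then none at day 5, which put day 5 at least 2.14-fold below day 0 and at least 3.44-fold below day 2. With no count filter its fall passed the test (adjusted p = 0.0423 against day 0 and 0.0135 against day 2, edgeR). CCL27, CCL25, CCL24, CXCL9, CXCL14 and CCL3 had between 1 and 9 counts over all 6 libraries, and passed in no comparison with no count filter. No count was seen for XCL1, XCL2, CXCL13, CXCL17, CCL1, CCL4, CCL14, CCL15, CCL16, CCL17, CCL18, CCL19, CCL21, CCL22 or CCL23, among them the lymph node ligands of CCR7 and CXCR5 and the type 2 ligands of CCR4. Of related genes named outside the CXCL and CCL scheme, PF4 had 6 and 1 counts at day 2 and 0 and 5 at day 5, CCL3L3 had 2 counts in all, and PPBP, the remaining ELR-type gene, had none.

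Receptors for these ligands were mostly at or near 0 counts. Of 23 receptor genes, 8 had no count and 7 were tested, of which 1 rose and 3 fell at day 2 (33.4 and 33.4% of all genes tested), 1 rose and 5 fell at day 5 (35.8 and 34.1%), both against day 0, and 2 fell from day 2 to day 5 (33.7%). CXCR2, the receptor of the ELR-type ligands, and CXCR3 each had at most 1 count in a library, and CXCR1, CXCR4 and CCR2 had none. ACKR3, a scavenging receptor of CXCL12 and CXCL11, fell from 44.8 CPM at day 0 to 2.50 ± 0.468 CPM (SD, n = 2) at day 2 and 1.23 ± 0.122 CPM at day 5, with log2 fold changes of -4.15 ± 0.12 (adjusted p = 4.43e-15, edgeR) and -5.18 ± 0.15 (2.32e-15) against day 0. CCR7 was the gene of this list that rose, from 0.625 ± 0.399 to 4.01 ± 0.458 CPM at day 2 (adjusted p = 6.06e-06) and 2.04 ± 0.673 CPM at day 5 (0.00118), while its ligands CCL19 and CCL21 had no count. CCRL2, an atypical receptor that does not signal, had counts of 36 and 31 at day 0, of 2 and 1 at day 2, then of 1 and 0 at day 5, with adjusted p of 7.14e-05 and 8.26e-05 against day 0. CCR1, a receptor of CCL5 and CCL7, fell from 2.21 to 0.629 and 0.265 CPM (0.00131 and 6.34e-05). ACKR4 and CXCR6 passed the test only at day 5 against day 0, both lower (0.0116 and 0.0482), and CCR10 passed in no comparison.

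Interleukin 1 and TNF signalling genes act upstream of many ligands. Of 13 tested genes of 15, 7 rose and 4 fell at day 2 (33.4 and 33.4% of all genes tested), and 5 rose and 6 fell at day 5 (35.8 and 34.1%), each against day 0, and from day 2 to day 5 3 rose and 8 fell (32.1 and 33.7%). IL1B, the secreted cytokine interleukin 1β, had mean levels of 0.258, 314 and 47.8 CPM at days 0, 2 and 5, high at day 2 as were CXCL8 and CCL20. IL1R1, its receptor, rose at both steps, from 139 to 470 to 1138 CPM (adjusted p = 1.58e-18 and 2.07e-17, edgeR). IRAK1, a kinase below that receptor, fell from 153 to 70.4 and 64.6 CPM, and TNFRSF1B, a TNF receptor, went from 24.6 to 31.7 to 8.56 CPM.

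All 15 genes of the NF-κB list were tested, and 8 rose and 3 fell at day 2 (33.4 and 33.4% of all genes tested), 7 rose and 3 fell at day 5 (35.8 and 34.1%), both against day 0, and 2 rose and 8 fell from day 2 to day 5 (32.1 and 33.7%). TNFAIP3, NFKBIA and NFKBIZ rose at day 2, NFKBIB fell (log2 fold change -0.28, adjusted p = 0.0109, edgeR) and NFKBIE did not pass (0.511). TNFAIP3, which encodes the deubiquitinase A20, rose from 16.2 ± 1.27 to 126 ± 4.11 CPM at day 2 (log2 fold change 2.96 ± 0.06, adjusted p = 2.26e-17, edgeR) and was at 96.4 ± 1.07 CPM at day 5. NFKBIA, the inhibitor IκBα, went from 49.1 to 163 to 65.8 CPM, and NFKBIZ, a nuclear IκB protein, from 27.6 to 126 to 47.9 CPM, each rising and then falling. NFKB2 went from 48.3 to 91.8 to 43.8 CPM. RELA, the p65 subunit, had 98.8, 92.9 and 68.7 CPM and was lower at day 5 only (adjusted p = 1.44e-08 against day 0), and IKBKG, a kinase scaffold, fell from 73.2 to 49.96 to 40.8 CPM. BIRC3, which encodes the ubiquitin ligase cIAP2, had counts of 37 and 38 at day 0, of 27 and 20 at day 2, then of 2 and 0 at day 5 (adjusted p = 6.93e-05 against day 0).

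IRF9 and IRF1, interferon signalling genes known to act on CXCL10, were lower at day 5 than at day 0, and SOCS3 was higher. Of 14 tested of 15, 6 rose and 5 fell at day 2 (33.4 and 33.4% of all genes tested), 7 rose and 6 fell at day 5 (35.8 and 34.1%), both against day 0, and 4 rose and 6 fell from day 2 to day 5 (32.1 and 33.7%). IRF9, a subunit of the factor that binds ISRE motifs, fell from 91.2 to 20.5 CPM at day 2 (adjusted p = 2.33e-15, edgeR) and stood at 21.0 CPM at day 5. IRF1 was at 80.8 and 83.9 CPM at days 0 and 2 (adjusted p = 0.395) and fell to 15.1 CPM at day 5 (6.39e-15 against day 2). SOCS3, a feedback inhibitor of JAK signalling, rose from 58.3 to 270 to 1138 CPM.

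Genes for mRNA decay and for cleavage of the ligands also moved. A list of 7 genes held regulators of mRNA decay, which acts on CXCL8 and related mRNAs. Of them, 4 rose and 3 fell at day 2 against day 0 (33.4 and 33.4% of all genes tested). At day 5 against day 0, 3 rose and 2 fell (35.8 and 34.1%). From day 2 to day 5, 3 rose and 4 fell (32.1 and 33.7%). HNRNPD, ELAVL1 and KHSRP were the 3 that fell at day 2, with log2 fold changes of -0.41, -0.37 and -0.14. ZFP36L1 went from 192 to 1296 to 342 CPM, ZC3H12A from 16.2 to 77.4 to 29.2 CPM, ZFP36L2 from 82.2 to 223 to 193 CPM and ZFP36 from 34.6 to 42.8 to 18.4 CPM. Each of these 4 was thus highest at day 2, with adjusted p of 3.20e-22, 6.24e-15, 3.54e-16 and 0.00128 against day 0 in edgeR. Of 9 tested genes of 10 for proteases that trim chemokines, 7 rose at day 2 (33.4% of all genes tested), 3 rose and 5 fell at day 5 (35.8 and 34.1%), each against day 0, and 2 rose and 5 fell from day 2 to day 5 (32.1 and 33.7%). MMP1 went from 415 to 1651 to 397 CPM, MMP3 from 143 to 273 to 44.0 CPM and DPP4, which clips CXCL10 and CXCL12, from 466 to 601 to 236 CPM. MMP2 and MMP14 rose at both steps, MMP2 from 1351 to 2260.0 to 2499 CPM and MMP14 from 641 to 1008 to 1360.1 CPM. RNA levels say nothing of the secreted or cleaved proteins, which were not analysed here.

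**Figure D5:**
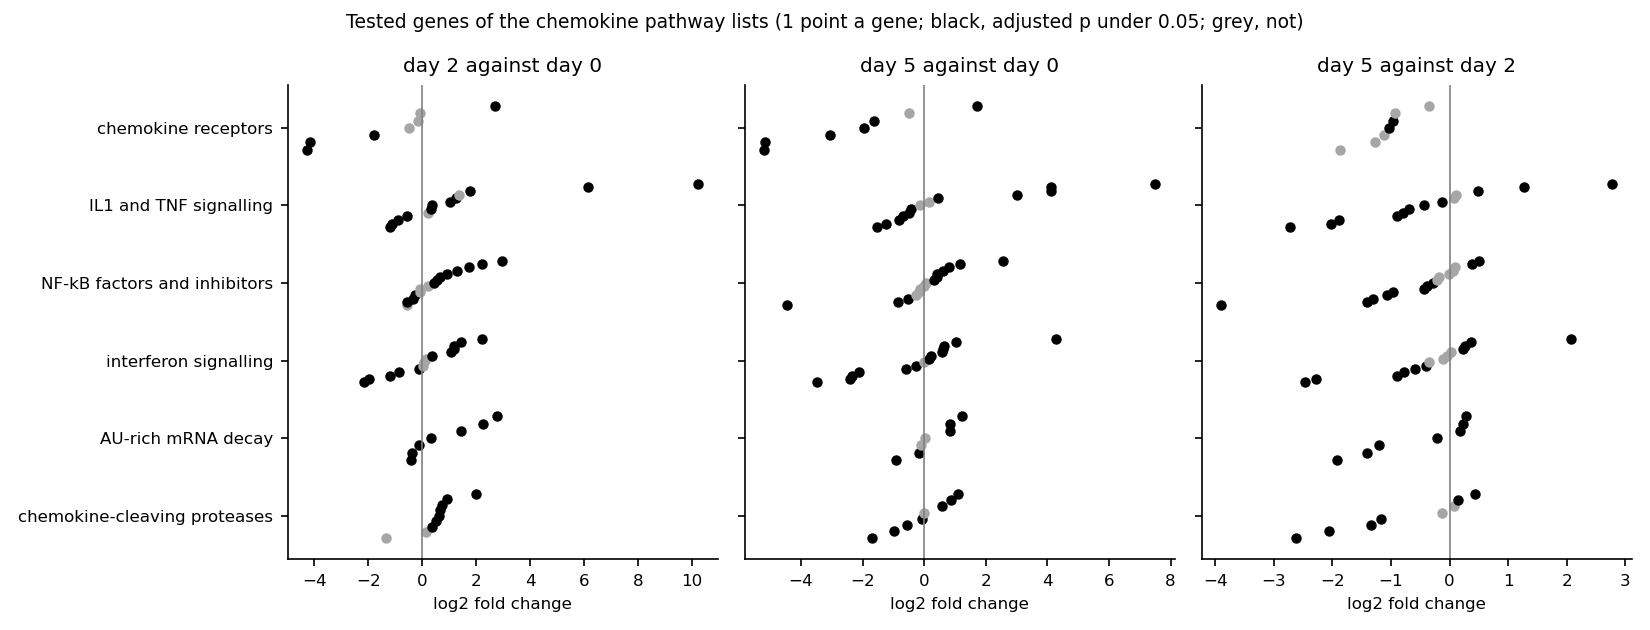
Log2 fold change (horizontal axis) of the tested genes in 6 lists of the chemokine pathway (vertical axis), 1 point a gene, in the 3 comparisons. Black points have an adjusted p under 0.05, and MMP12, with no count at day 5, is left out of the panels with that day. Most of the 7 tested receptors lie left of 0 in every panel, with CCR7 the point right of 0 at day 2 and day 5 against day 0.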

How the data were processed

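RNA libraries were made from total RNA with an Illumina TruSeq kit, per the labels' protocols. The deposited values are expected counts (estimated counts per gene, not scaled), per the file headers and the values. Per the submitters' processing notes, genome build GRCh38 was used. No aligner, counting tool, annotation release or strand setting is given in the sources used here, so reads of overlapping genes cannot be told apart. Of all values 87.2% were whole, and the rest were rounded. The 172 genes with no name (0.0356 to 0.0475% of a library) were left out.

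All 6 libraries, grouped by time point, were fitted jointly in edgeR 4.0.16 under R 4.3.3, with filterByExpr (minimum count 10, minimum total 15) before TMM scaling. The quasi-likelihood test (residual degrees of freedom: 3) was two-sided and Benjamini-Hochberg adjusted over 16327 genes. SE is the log2 fold change divided by the square root of F. The script was tested on simulated data. The members and lists were chosen with earlier results of these data known. Every tested member was named, with every tested receptor and, of each other list, the genes of the 3 lowest adjusted p in each comparison. Named beyond this rule were BIRC3, NFKBIB, NFKBIE, HNRNPD, ELAVL1, KHSRP, MMP12, cell type markers and some genes that were not tested. A result that this rule takes is not reported here. Positions are from GENCODE 29 (41 of 41 matched by gene identifier) and promoters from RefSeq (GRCh38.p14), aligned with Biopython 1.88. Libraries of a day differed beyond sampling noise (chi-square per degree of freedom 2.31 to 2.41), so none was treated as a second deposit of another. Alternatives were DESeq2 1.42.0, limma-voom 3.58.1, edgeR's glmTreat against 2-fold, and other scalings and filters. Others were fits of only the groups compared, a replicate block and leaving out each library.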

Additional observations from a re-analysis of the deposited data

How the results depend on the processing

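Of 51 comparisons of a tested ligand, 32 kept their side of the threshold under every alternative run, and 699 of 740 alternative values did. No called change reversed. The sign of 4 uncalled ones moved: day 5 against day 0, log2 fold changes ran from -0.13 to 0.19 for CXCL1, from -0.35 to 0.44 for CCL20 and from -0.19 to 0.16 for CXCL16, and day 5 against day 2, from -0.12 to 1.13 for CCL28. The count of ligands lower at day 2 against day 0 (8) became 2 when the change had to exceed 2-fold (5.54% of all genes). It became 4 with a stricter filter (at least 1 CPM in at least 4 libraries), where 5044 of 13413 genes were lower. That filter tests fewer genes and fewer ligands. It left out CX3CL1, CXCL11, CCL28 and CCL5, which were called lower at day 2 against day 0, so their calls were not made rather than lost. It also left out CCL7, CCL20 and CCL11, each called higher in at least 1 comparison. The count lower at day 5 against day 0 (5) became 2 with the stricter filter (4941 of 13413 genes). The count lower at day 5 against day 2 (8) became 4 above 2-fold (7.96% of all genes). With the stricter filter it became 5 (4942 of 13413 genes). CCL5 at day 5 against day 0 passed only with library totals (adjusted p = 0.0416, range 0.0416 to 0.632, edgeR), and CXCL16 at day 5 against day 2 only with the stricter filter (0.0225, range 0.0225 to 1). The cause of these CCL5 and CXCL16 shifts was not tested. Counting any count as detection gave 26 ligands, and requiring 10 counts gave 17. Depth limited the low levels most at day 5, where libraries held the fewest counts.

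The replicate numbers did not pair the libraries: deviations of same-numbered libraries from their day's mean had correlations of 0.0027, -0.0024 and -0.0050 across genes. With the replicate number as a block, 7 ligands rose from day 0 to day 2 and 6 fell (5408 and 5398 of 16327 genes). Between days 0 and 5, that fit had 6 ligands rising and 5 falling (5737 and 5560 of 16327 genes). Between days 2 and 5, it had 5 rising and 8 falling (5156 and 5486 of 16327 genes). The block changed no call of a ligand other than CXCL16 and CCL5 at day 2 against day 0.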
